A study of Mus musculus with 2 samples.

Results

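The 10 genes described here encode proteins that coat lipid droplets or take their triglyceride apart: the perilipins Plin2, Plin4 and Plin5, the droplet fusion proteins Cideb and Cidec, the lipases Pnpla2, Lipe and Mgll, and the lipase regulators Abhd5 and G0s2. They were taken by gene symbol from GENCODE M21, and all 10 were found among the 55421 genes counted. RNA of mouse liver was sequenced in 2 libraries, 1 from Rcrin conditional knockout mice and 1 from mice with floxed Rcrin alleles, called WT, both at 8 weeks. The floxed alleles carry loxP sites and leave the gene in place until a Cre recombinase acts. The sources used here do not give the promoter that drives the Cre, the deleted cell type, the sex of the animals or how many mice each library came from.

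Hepatocytes store surplus fatty acids as triglyceride inside droplets that are covered by a phospholipid layer and coat proteins. Perilipins on that surface limit the access of lipases, and CIDE proteins let droplets fuse and hand lipid to one another. Adipose triglyceride lipase, the product of Pnpla2, starts the breakdown, is activated by Abhd5 and inhibited by G0s2, and leaves diacylglycerol for hormone-sensitive lipase (Lipe). That enzyme in turn leaves monoacylglycerol for monoglyceride lipase (Mgll).

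Most of these genes were less abundant in the knockout library, by amounts under 2-fold, and G0s2 was far below the others. G0s2, the inhibitor of adipose triglyceride lipase, was 9.75-fold lower. The lipase gene Pnpla2, its companions Lipe and Mgll, and the perilipins Plin5 and Plin4 were 1.51-fold to 1.66-fold lower. Plin2 was 1.37-fold lower, Cideb differed by less than its counting error, and the activator Abhd5 was 1.12-fold higher. The ratios also moved with GC content, as described below. With that trend removed, Pnpla2, Lipe, Mgll, Plin5 and Plin4 were 1.31-fold to 1.43-fold lower and Plin2 was 1.32-fold lower. G0s2 was then 8.39-fold lower and Abhd5 1.05-fold higher. With 1 library per genotype there is no estimate of the spread between mice, so no test was made, and each interval given covers counting error only.

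The sequences just upstream of the start sites of 4 of these genes are shown: the lipase inhibitor G0s2, which had the lowest ratio, its counterpart Abhd5, which had the highest, the lipase both act on, and the most abundant coat gene. They are RefSeq promoter windows on GRCm38.p6, written 5′ to 3′ on the strand of the gene and ending at the base before the annotated start site. Capitals mark matches to any of the motifs searched.
G0s2 (chr1:193273189-193273438, minus strand): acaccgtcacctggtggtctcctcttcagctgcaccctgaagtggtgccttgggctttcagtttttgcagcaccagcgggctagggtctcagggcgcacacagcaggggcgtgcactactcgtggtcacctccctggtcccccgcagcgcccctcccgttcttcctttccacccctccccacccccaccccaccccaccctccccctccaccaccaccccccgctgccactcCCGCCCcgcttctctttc
Abhd5 (chr9:122351366-122351615, plus strand): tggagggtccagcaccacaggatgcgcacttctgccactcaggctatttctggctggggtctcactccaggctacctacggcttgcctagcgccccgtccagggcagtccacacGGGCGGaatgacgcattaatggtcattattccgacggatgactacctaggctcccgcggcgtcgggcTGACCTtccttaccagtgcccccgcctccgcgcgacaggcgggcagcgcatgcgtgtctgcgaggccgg
Pnpla2 (chr7:141454938-141455187, plus strand): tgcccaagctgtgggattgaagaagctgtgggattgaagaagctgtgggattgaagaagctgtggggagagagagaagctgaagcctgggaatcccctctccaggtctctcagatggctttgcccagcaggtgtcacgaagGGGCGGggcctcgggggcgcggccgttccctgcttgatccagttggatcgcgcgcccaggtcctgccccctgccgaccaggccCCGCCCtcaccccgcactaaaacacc
Plin2 (chr4:86670060-86670309, minus strand): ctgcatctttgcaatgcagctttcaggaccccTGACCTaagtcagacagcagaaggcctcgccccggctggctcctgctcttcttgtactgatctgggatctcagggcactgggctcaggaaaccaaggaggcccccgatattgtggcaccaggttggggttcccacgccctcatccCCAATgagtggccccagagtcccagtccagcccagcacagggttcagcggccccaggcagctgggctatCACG

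The motifs were searched on both strands in windows of 300 bases, from 250 before to 50 after each start site. All 10 genes had a window, 14 windows in all, against 32851 windows of all genes. The GC box GGGCGG was found in 10 of the 14 windows, which belong to all of these genes but Cidec and Plin4, and in 35.7% of all windows. These windows are rich in G and C: all but that of Cideb (48%) lie above 52.7%, the median of all windows. The windows of Plin5 overlap and share a GC box. The part of GC content in these shares was not tested. In the lines shown, G0s2 held a single GC box 18 bases before its start, on the opposite strand, and Pnpla2 held 2. The nuclear receptor element AGGTCA was in 4 of the 14 windows (of Abhd5, Plin2 and Plin5) and in 16.3% of all windows. Plin2 held the E box CACGTG across its start site, so the line shows only its first letters, and Lipe and Mgll had that motif too (3 of the 14 windows and 7.15% of all windows). The CCAAT box (CCAAT) was found in 3 of the 14 windows, 1 of each perilipin gene, and in 37.4% of all windows. The forkhead site TGTTTAC was found in 2 of the 14 windows (of Lipe and Mgll) and 3.65% of all windows, and the TATA box TATAAA in 1 (of Cideb) and 13.6% of all windows. No window of these genes held a direct repeat of 2 AGGTCA elements spaced by 1 base, the DR1 arrangement that PPAR and RXR bind, and only 13 windows of all genes held it in these exact letters. A match is a run of letters, not a bound site, and a missing match says only that these letters are not in the window.

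The libraries held 63587567 counts (knockout) and 65121596 counts (WT). Liver identity was plain in both: all 10 hepatocyte markers were detected, with a summed level of 137934 CPM in the knockout library and 90785 CPM in the WT library. Most of that sum was Alb, at 89624.5 CPM in the knockout library and 50542.5 CPM in the WT library. Of the 10 markers 7 were higher in the knockout library and 3 lower. CPM here is a count scaled to the library total, after correction of the total with a TMM factor, and is comparable between the libraries for the same gene. Adipocytes express Plin4, Cidec and Lipe strongly, but their defining genes were nearly absent. Of 11 adipocyte markers 7 had no count in either library, among them Adipoq, Lep and Plin1, and the list summed to 18.2 CPM in the knockout library and 23.9 CPM in the WT library, nearly all from Fabp4 and Pparg, which other liver cells also express.

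**Figure D1:**
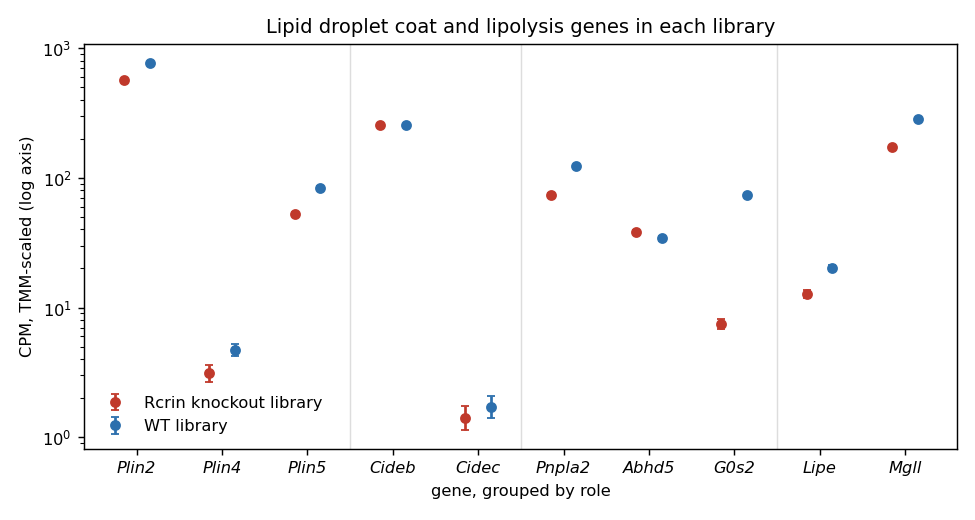
Level of each of the 10 genes in the Rcrin knockout library (red, left) and the WT library (blue, right), as TMM-scaled CPM on a log axis, with exact Poisson 95% intervals for counting error. Plin2 was the most abundant at 563 CPM in the knockout library and 769 CPM in the WT library, and G0s2 had the widest gap.

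Of the perilipins, Plin2 is the general coat of liver droplets. Plin2 (ENSMUSG00000028494) lies on chromosome 4 of GRCm38, from 86648386 to 86670060, and had 35176 counts in the knockout library and 50982 counts in the WT library. That is 563 CPM in the knockout library and 769 CPM in the WT library, with a log2 ratio of knockout over WT of -0.45 (interval -0.47 to -0.43). Plin5, which ties droplets to mitochondria in tissues that burn fat, had 3299 counts in the knockout library and 5575 counts in the WT library. Its log2 ratio was -0.67 (interval -0.73 to -0.61). Plin4, known best from fat and muscle, had only 194 counts in the knockout library and 312 counts in the WT library, and its log2 ratio of -0.60 had a wide interval, from -0.87 to -0.34. Plin4 (56100591 to 56109803) and Plin5 (56111601 to 56117596) are neighbours on chromosome 17, on the same strand and 1797 bases apart. Plin4 counts per Plin5 count were 0.0588 in the knockout library and 0.0560 in the WT library, a log2 difference of 0.07 (interval -0.19 to 0.34). As counts the 3 perilipin genes together made up 619 CPM in the knockout library and 858 CPM in the WT library, most of it Plin2.

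The CIDE genes were nearer to their WT levels. Cideb, the hepatocyte member that works in droplet fusion and in the lipid loading of very low density lipoprotein, had 15922 counts in the knockout library and 16783 counts in the WT library. After scaling that is 255 CPM in the knockout library and 253 CPM in the WT library (log2 ratio 0.0094, interval -0.02 to 0.04). Cideb counts per Plin2 count were 0.453 in the knockout library and 0.329 in the WT library, a log2 difference of 0.46 (interval 0.42 to 0.50). Of the 1488 exonic bases of Cideb (chromosome 14 from 55754050 to 55758458), 1136 overlap exons of Nop9 on the opposite strand. The counting is not stated to use strand, so reads of Cideb and Nop9, which had 4585 counts in the knockout library and 5720 counts in the WT library, may not have been told apart. Cidec, which builds the large droplets of fat cells and of steatotic liver, was barely detected, with 88 counts in the knockout library and 114 counts in the WT library. Its log2 ratio of -0.29 had an interval from -0.71 to 0.13, so no difference was detectable at this depth. The Cidec gene spans chromosome 6 from 113424634 to 113435760.

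The lipase genes lay close together. Pnpla2 (chromosome 7 from 141455198 to 141460743) had 4626 counts in the knockout library and 8117 counts in the WT library, a log2 ratio of -0.73 (interval -0.78 to -0.67). Lipe (chromosome 7 from 25379527 to 25398710) had 791 counts in the knockout library and 1339 counts in the WT library, a log2 ratio of -0.67 (interval -0.80 to -0.55). Mgll (chromosome 6 from 88724412 to 88828360), which also degrades the endocannabinoid 2-arachidonoylglycerol, had 10772 counts in the knockout library and 18983 counts in the WT library, a log2 ratio of -0.73 (interval -0.77 to -0.70). Ratios inside a library do not depend on the scaling between libraries. Mgll counts per Pnpla2 count were 2.33 in the knockout library and 2.34 in the WT library, and Lipe counts per Pnpla2 count were 0.171 in the knockout library and 0.165 in the WT library. Plin5 counts per Pnpla2 count were 0.713 in the knockout library and 0.687 in the WT library. The log2 differences of these ratios were -0.0062 (interval -0.07 to 0.06), 0.05 (-0.09 to 0.19) and 0.05 (-0.03 to 0.14) for Mgll, Lipe and Plin5, all of them spanning 0. Antisense genes overlap 15.6% of the exonic bases of Lipe and 3.29% of those of Mgll, with at most 163 counts in either library, and the one that overlaps Abhd5 had none.

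The lipase regulators lay on opposite sides. G0s2 (ENSMUSG00000009633, chromosome 1 from 193272161 to 193273217) had 469 counts in the knockout library and 4857 counts in the WT library. Its level was 7.51 CPM in the knockout library and 73.3 CPM in the WT library, with a log2 ratio of -3.29 (interval -3.43 to -3.15). Of the genes compared, 1.27% stood lower than G0s2. Abhd5 (chromosome 9 from 122351608 to 122381524) had 2395 counts in the knockout library and 2261 counts in the WT library, a log2 ratio of 0.17 (interval 0.08 to 0.25). Pnpla2 counts per G0s2 count were 9.86 in the knockout library and 1.67 in the WT library, 5.90-fold higher in the knockout library. Abhd5 counts per G0s2 count were 5.11 in the knockout library and 0.466 in the WT library, 11.0-fold higher. Abhd5 counts per Pnpla2 count were 0.518 in the knockout library and 0.279 in the WT library, 1.86-fold higher. Such ratios still hold the trend with GC content described below, and the GC content was 48.8% for Abhd5 and 58.0% for Pnpla2. With that trend removed, the log2 ratio was 0.07 for Abhd5 and -0.50 for Pnpla2.

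G0s2 is also a short gene with 2 exons, a class whose counts differed widely between these libraries. Only genes averaging 50 counts or more, with counts in both libraries, were taken for this. Among the 476 of them with 2 exons, 6.72% were at least 8-fold lower in the knockout library and 5.67% at least 8-fold higher. Of the 11194 such genes that have 3 exons or more, 0.590% were lower by as much and 0.518% higher. The other 9 genes have between 5 and 10 exons. Most compared markers of neutrophils and of red blood cells were lower in the knockout library. The 14 neutrophil markers, a list added after the values were seen, summed to 33.0 CPM in the knockout library and 96.9 CPM in the WT library, and all 11 that could be compared were lower, 6 of them by at least 2-fold. For this and the marker lists that follow, 50.8% of all genes compared were below 0 and 8.61% were lower by at least 2-fold. Red blood cell markers summed to 784 CPM in the knockout library and 3087 CPM in the WT library, with 5 of 6 lower by at least 2-fold. The other compared, Alas2, was higher, with 19110 counts in the knockout library and 13871 counts in the WT library (log2 ratio 0.55). The 10 Kupffer cell and macrophage markers, 8 of them lower, summed to 1264 CPM in the knockout library and 1779 CPM in the WT library. Stellate cell markers summed to 150 CPM in the knockout library and 166 CPM in the WT library, and endothelial markers to 404 CPM in the knockout library and 439 CPM in the WT library. Of the 10 stellate cell markers 6 were lower, 2 of them by at least 2-fold, and 4 higher. Of the 9 endothelial markers 6 were lower, 1 of them by at least 2-fold, and 3 higher. The median log2 ratio was -0.32 for stellate cell, -0.45 for endothelial and -0.53 for Kupffer cell and macrophage markers. With the GC trend removed these medians were -0.24, -0.23 and -0.42. The part of gene structure or of other cells in the G0s2 value was not tested, and in tissue RNA fewer cells of a type and less RNA per cell cannot be told apart.

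**Figure D2:**
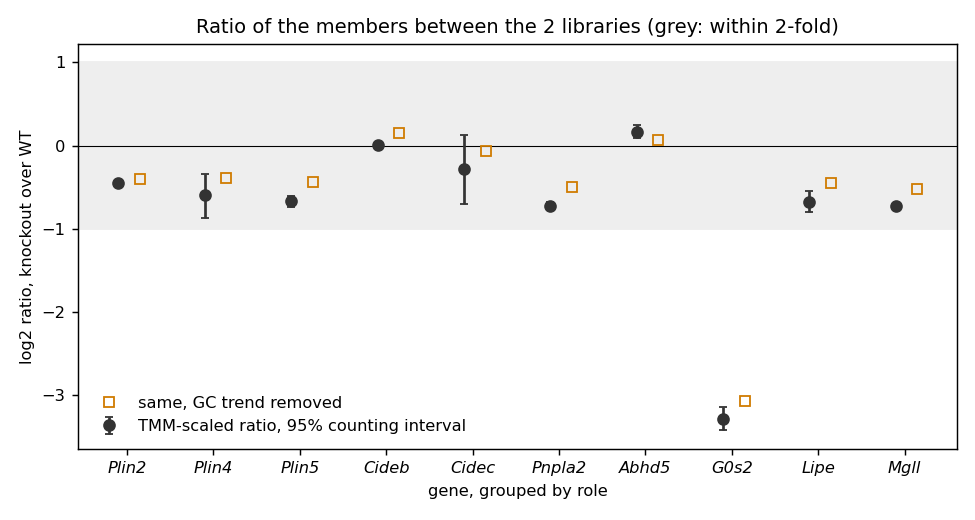
Log2 ratio of knockout over WT for each of the 10 genes, with exact 95% intervals for counting error (black) and the value after the trend with GC content was removed (orange squares). G0s2 at -3.29 lies alone outside the grey band of 2-fold, Abhd5 is the highest at 0.17, and the squares of the lipase genes lie nearer to 0 than the black points.

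By the limit of 2-fold, 1 of the 10 genes was lower (G0s2), where 8.61% of the 12064 genes compared (those averaging 50 counts or more) were lower. None was higher, where 8.45% of all genes were. G0s2 was also lower by more than 4-fold, as were 2.80% of all genes (2.51% were higher by as much), and its counting interval lay wholly beyond 2-fold, as did 6.18% of all genes on the lower side and 5.93% on the higher. Of the 9 genes with at least 3 exons, 0 were past 2-fold in either direction, where 7.62% of all genes of that class were lower and 7.64% higher. At a limit of 1.5-fold 6 of the 10 were lower and 0 higher, where 18.8% of all genes were lower and 19.0% higher. The genes past that limit were G0s2, Mgll, Pnpla2, Lipe, Plin5 and Plin4. The median log2 ratio of the 10 was -0.64, beside -0.0099 over all genes compared, and without G0s2 it was -0.60. In all, 8 of the 10 were below 0, as were 50.8% of all genes.

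**Figure D3:**
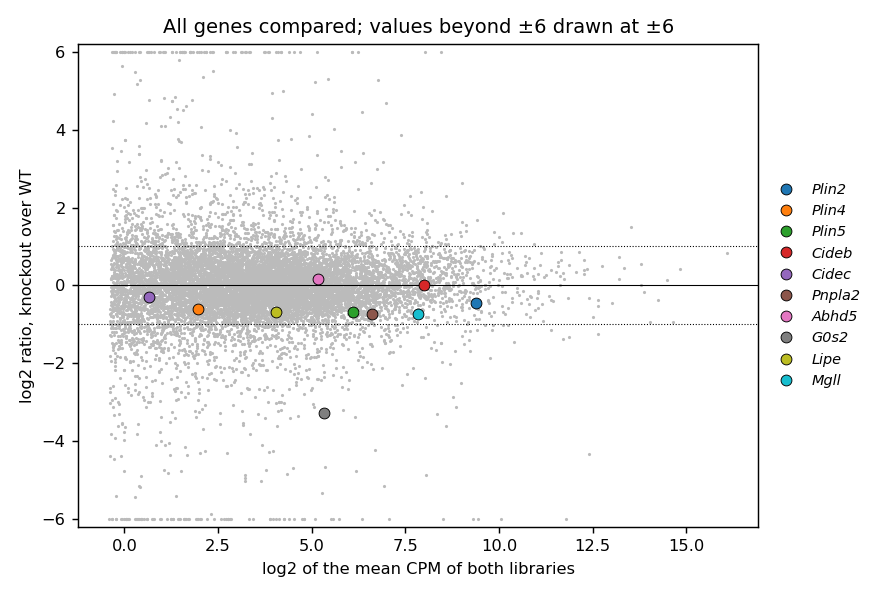
Log2 ratio of knockout over WT against the log2 of the mean CPM for all 12064 genes compared (grey), with the 10 genes in colour and dotted lines at 2-fold. Apart from G0s2 at -3.29, the coloured points lie within 2-fold, mostly in the lower part of that band.

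GC content moved with these values. Over all genes the log2 ratio was lower where transcripts were richer in G and C: its median was 0.39 for 868 genes with 42% to 44% GC and -0.28 for 1175 genes with 56% to 58% GC. The transcripts of 9 of the 10 genes had a median GC content of 51.8% to 58.7%, and those of Abhd5 48.8%. Genes within 1 percentage point of Mgll in GC content had a median of -0.26, where Mgll was at -0.73. Such genes had a median of -0.25 around Pnpla2, -0.23 around Plin5, -0.28 around Lipe, -0.26 around Plin4 and -0.09 around Plin2. With a smooth GC trend removed, the log2 ratios were -0.52 for Mgll, -0.50 for Pnpla2, -0.46 for Lipe, -0.44 for Plin5, -0.40 for Plin2 and -0.39 for Plin4. Cidec came to -0.07, Cideb to 0.15 and Abhd5 to 0.07, and G0s2 to -3.07. Then 1 of the 10, G0s2, was lower by 1.5-fold or more, where 17.7% of all genes were lower and 15.7% higher. By 2-fold or more it was again G0s2 alone, where 8.50% of all genes were lower and 7.19% higher. The median of the 10 with the trend removed was -0.42, beside -0.036 over all genes compared. Of the 10, 8 were then below 0, as were 52.7% of all genes.

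**Figure D4:**
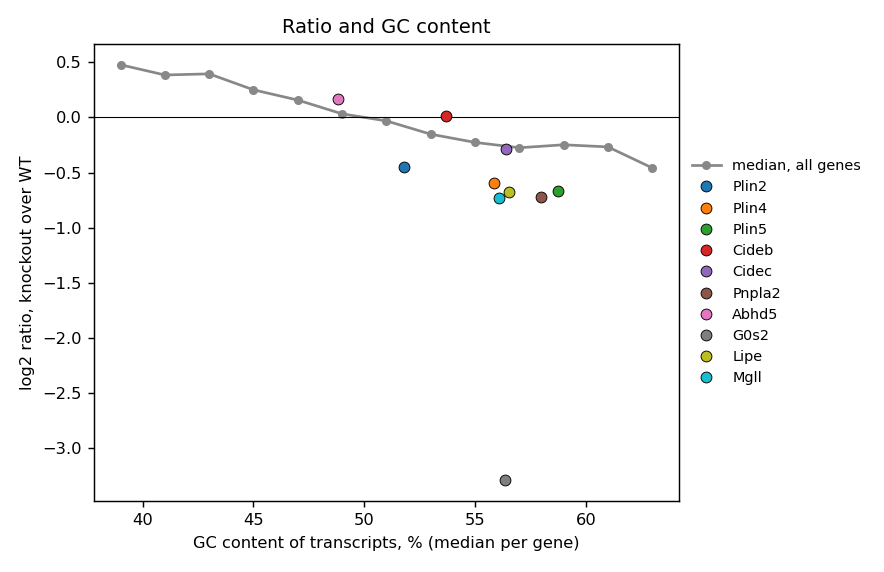
Log2 ratio of knockout over WT against the GC content of transcripts, for the 10 genes (coloured) and as the median of all genes compared in steps of 2 percentage points (grey line). Mgll, Pnpla2, Lipe, Plin5, Plin4 and Plin2 lie below the line, Cidec near it, Abhd5 and Cideb above it, and G0s2 at -3.29 far below.

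Levels were compared between genes per kilobase of transcript, taking the median length over annotated transcripts. In the knockout library Plin2 led with 797 CPM per kilobase, followed by Cideb with 243, Mgll with 147, Pnpla2 with 41.2, Abhd5 with 36.6, Plin5 with 26.6, G0s2 with 8.62, Lipe with 6.47, Cidec with 1.13 and Plin4 with 0.540. In the WT library Plin2 had 1089 CPM per kilobase, Mgll 245, Cideb 241, G0s2 84.1, Pnpla2 68.1, Plin5 42.4, Abhd5 32.5, Lipe 10.3, Cidec 1.38 and Plin4 0.818. G0s2 thus stood at rank 7 in the knockout library and at rank 4 in the WT library, and Abhd5 at rank 5 in the knockout library and rank 7 in the WT library. Counting intervals of neighbours in the order overlapped only for Mgll and Cideb in the WT library. The order depends on the length used. With the union of all exons as length, 4 of the 10 kept their rank in the knockout library, where Cideb (171) came before Plin2 (160), and 7 in the WT library.

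Further droplet proteins had both directions. Of 20 more coat and structure genes 17 could be compared, and 13 of them stood above 0, with a median log2 ratio of 0.16 that became -0.020 with the GC trend removed. Of these 2 were higher by at least 2-fold and 0 lower, where 8.45% of all genes were higher and 8.61% lower. Both were FIT proteins of the endoplasmic reticulum, which help droplets to form. Fitm2 had 4126 counts in the knockout library and 116 counts in the WT library (log2 ratio 5.23), and Fitm1 had 2372 counts in the knockout library and 1156 counts in the WT library (1.12). Each has 2 exons, like G0s2. The lowest was the lipid transfer protein Vps13c at -0.71, which passed 2-fold with the GC trend removed (-1.07), so that 2 were then higher and 1 lower. Of all genes 7.19% were then higher and 8.50% lower. The other widely expressed perilipin, Plin3, stood at -0.29. The adipocyte perilipin Plin1 had no count in either library, and Cidea had 4 counts in the knockout library and 0 counts in the WT library.

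Among other hydrolases of neutral lipid, those past 2-fold were all higher. Of 22 genes 21 could be compared, with a median log2 ratio of 0.23 (0.20 with the GC trend removed). By at least 2-fold 6 were higher and 0 lower, where 8.45% of all genes were higher and 8.61% lower. Arylacetamide deacetylase (Aadac), an esterase of the endoplasmic reticulum, had 40032 counts in the knockout library and 8708 counts in the WT library (log2 ratio 2.29). Pnpla3, the closest relative of Pnpla2 in this list and known in humans for a variant linked to fatty liver, had 83 counts in the knockout library and 26 counts in the WT library (1.74). The carboxylesterases Ces1g (1.25) and Ces1f (1.12) have close paralogs with which reads could be shared, and how such reads were counted is not given, so these values are uncertain. Hepatic lipase (Lipc, 1.08) and lipoprotein lipase (Lpl, 1.02), which act on lipoproteins outside the cell, completed the group. The lowest was Abhd2 at -0.59. With the GC trend removed, Ces1f (0.78) and Lpl (0.87) came back within 2-fold, leaving 4 higher and 0 lower, beside 7.19% and 8.50% of all genes.

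Genes of triglyceride synthesis leaned lower. Of 25 genes 23 could be compared, 16 of them below 0, with a median log2 ratio of -0.28 that became -0.10 with the GC trend removed. Past 2-fold 1 was lower and 0 higher, where 8.61% of all genes were lower and 8.45% higher. That gene was glycerol-3-phosphate dehydrogenase 1 (Gpd1), which supplies the glycerol backbone, with 9037 counts in the knockout library and 37487 counts in the WT library (log2 ratio -1.97). The highest was the acyl-CoA synthetase Acsl5 at 0.88. The monoacylglycerol acyltransferase Mogat1 had 76 counts in the knockout library and 0 counts in the WT library, below the level needed for comparison.

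Several members are textbook targets of PPAR receptors, among them Plin2, Plin5, Cidec and G0s2. Of 35 PPAR regulators and targets 33 could be compared, with a median log2 ratio of 0.03 (-0.0048 with the GC trend removed), 4 higher by at least 2-fold and 3 lower, shares near those over all genes (8.45% higher and 8.61% lower). Among the higher ones were the fatty acid transporter Cd36 (1.60), the liver fatty acid binding protein Fabp1 (1.36) and the hormone Fgf21 (1.20). The receptor partner Rxra (-1.14), the coactivator Ppargc1a (-1.07) and the lipoprotein lipase inhibitor Angptl4 (-1.02) were lower. Rxra had 5931 counts in the knockout library and 13896 counts in the WT library. With the GC trend removed Rxra (-0.91) and Angptl4 (-0.82) came back within 2-fold, while Fabp4 (-1.38), Cyp4a31 (-1.05) and Acaa1b (1.07) passed it, so that 5 were higher and 3 lower. Of all genes 7.19% were then higher and 8.50% lower. Ppara itself had 703 counts in the knockout library and 740 counts in the WT library (0.01).

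Genes that signal to the lipases also had both directions. Of 27 entries 20 could be compared, with a median log2 ratio of 0.03 (-0.05 with the GC trend removed). Past 2-fold 3 were higher and 0 lower, where 8.45% of all genes were higher and 8.61% lower. The insulin receptor substrate Irs1, which has 2 exons, had 619 counts in the knockout library and 153 counts in the WT library (2.10). The cyclic AMP phosphodiesterase Pde4b stood at 1.09 (0.95 with the GC trend removed). The adenosine receptor Adora1, which restrains lipolysis in fat cells, had 359 counts in the knockout library and was listed at 0 in the WT library. The lowest was Prkar1a, a regulatory subunit of protein kinase A, at -0.89. With the GC trend removed Prkar1a (-1.11) and the catalytic subunit Prkaca (1.01) passed 2-fold, so that 3 were higher and 1 lower. Of all genes 7.19% were then higher and 8.50% lower. Across the 5 lists, with each gene taken once, 113 genes could be compared and the median log2 ratio was 0.02 (-0.025 with the GC trend removed). By at least 2-fold 15 of these 113 were higher and 4 lower, beside 8.45% and 8.61% of all genes.

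**Figure D5:**
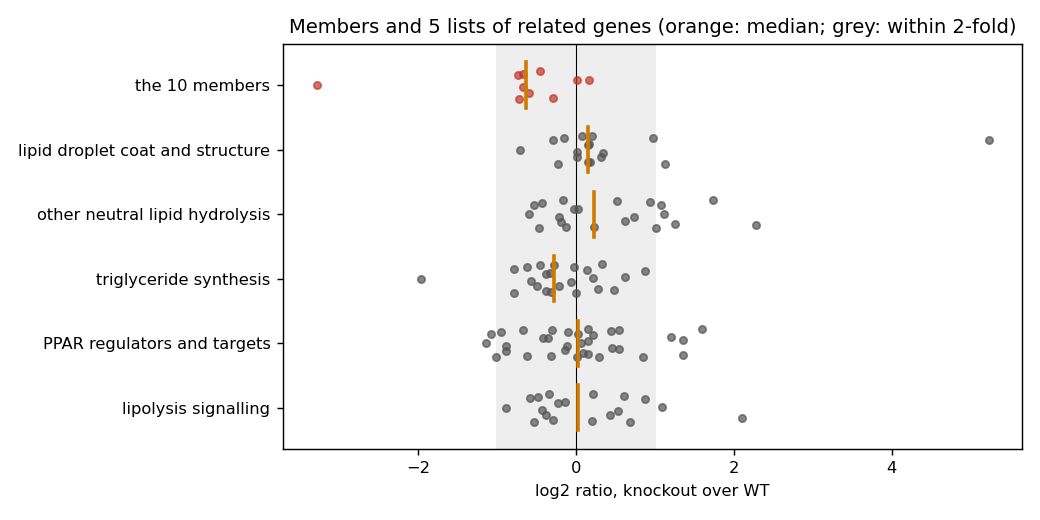
Log2 ratio of knockout over WT for the 10 genes (red) and for the genes of 5 related lists (grey points, genes compared, leaving out any listed at 0 in a library), with the median of each list in orange and the range of 2-fold shaded. The median of the 10 genes lies at -0.64, and those of the lists lie between -0.28 and 0.23.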

How the data were processed

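Per the labels' protocols, total RNA of liver was extracted with Trizol and libraries were made with a SMARTER mRNA-Seq kit. The authors deposited raw counts of reads for each Ensembl gene, as the file headers name them. The submitters' processing notes name the build GRCm38 (mm10). Aligner, counting program, annotation release and strand setting are not given in the sources used here. Groups followed the genotype label.

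GENCODE M21 gave symbols, exon numbers (the most of any transcript), lengths and GC content (medians over transcripts) for 55154 of 55421 genes. TMM factors were computed with edgeR 4.0.16 in R 4.3.3 (0.982 for the knockout library, 1.018 for WT). Before taking log2 ratios, 0.5 reads were added in proportion to each library total. Genes averaging 50 counts or more were compared. No test was possible with 1 library per genotype. Intervals of log2 ratios are exact conditional (Clopper-Pearson) 95% intervals, those of CPM are exact Poisson intervals, and those of ratios between members are Woolf intervals on the log scale. These intervals cover counting error only and treat reads as independent. PCR reads without molecular identifiers are not independent, so the intervals may be too narrow even for counting error. The GC trend was a lowess curve (span 0.3). The calculations were tested on simulated counts.

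The genes and lists were chosen with earlier results of these data known. Beside the 10 genes, the text names the highest and lowest gene of each list among those compared with counts in both libraries, and those past 2-fold, of which 1 is not reported here. Plin3, Ppara, the genes listed at 0 and those that passed 2-fold with the GC trend removed were named after their values were seen. Of the list entries, 1 in the coat list and 1 in the signalling list had no match of their own. Cholangiocyte markers summed to 16.5 CPM in the knockout library and 26.9 CPM in the WT library, and skeletal muscle markers to 0.192 CPM in the knockout library and 0.0603 CPM in the WT library. The alternatives were size factors of DESeq2 1.42.0, plain library totals, 5 reads added, no level filter, a mean of at least 500 counts, GC trend removal, limits of 1.5-fold, 4-fold and an interval wholly beyond 2-fold, genes with at least 3 exons, and exon-union length.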

Additional observations from a re-analysis of the deposited data

How the results depend on the processing

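Over 67 alternative values for single genes of the 10, none changed the side of 0 except Cideb, which ranged from -0.04 (scaling by total count) to 0.15 (GC trend removed) on the log2 scale. Values under the changed level filters and the exon limit could not differ from those reported, because these settings only leave genes out. G0s2 stayed between -3.34 and -3.07, Mgll between -0.78 and -0.52, Pnpla2 between -0.78 and -0.50, and Abhd5 between 0.07 and 0.17. Of the 10, the number lower past the limit was 6 at 1.5-fold and 0 among genes with at least 3 exons, which leaves out G0s2. In the 5 related lists, 25 genes were higher and 15 lower at 1.5-fold, 4 higher and 0 lower at 4-fold, and 12 higher and 2 lower where the counting interval had to lie wholly beyond 2-fold. Of all genes, 19.0% were higher and 18.8% lower at 1.5-fold, 2.51% and 2.80% at 4-fold, and 5.93% and 6.18% by that interval. Beside 15 higher and 4 lower as reported, the lists held 14 higher and 6 lower with the GC trend removed, 19 and 6 without a level filter, 10 and 3 at 500 counts, and 11 and 4 among genes with at least 3 exons. The shares of all genes, higher and lower, were 8.45% and 8.61% as reported and 7.19% and 8.50% with the trend removed. They were 17.6% and 18.6% without a level filter, 6.26% and 6.44% at 500 counts, and 7.64% and 7.62% at 3 exons or more. The median of the further coat and structure genes became -0.020 with the GC trend removed. The number of members at the same rank by level per length was 4 in the knockout library with exon-union length. With the level needed raised to 500 counts, 8 of the 10 could be compared, which leaves out Plin4 and Cidec. No paired analysis was possible because each genotype had 1 library. Intervals cover counting error only, and counts as low as those of Cidec (88 in the knockout library, 114 in the WT library) leave a wide range.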
